A study of Mus musculus with 95 samples.

Results

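The lungs described here are those of C57BL/6 mice (strain C57BL in the labels) at day 41 of an exposure to Pneumocystis murina, 10 exposed against 5 unexposed female mice. They were found by their titles, which give strain, day and exposure, and they make up 15 of the 95 arrays of the series. The exposed mice had been housed with a seeder mouse heavily infected with P. murina until they were killed at day 41, so the time counts from first contact and not from a measured infection. The unexposed mice were killed at the matching time. Mice were 8 weeks old per the labels, which do not say at which time of the study. No mouse of either group carried an engineered allele or received a drug, as far as the labels say. RNA came from whole lung homogenate, 1 array per mouse.

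These mice belong to an experiment of 3 cages, of which 2 were exposed and 1 was not, with days 34 and 41 sampled from the same cages. The labels do not name the cage of each mouse. Cage and exposure therefore cannot be told apart, and p-values treat mice of a cage as independent. The series as a whole also holds earlier and later days and mice that lack CD40 ligand.

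Pneumocystis murina is a fungus that lives attached to the thin epithelium of the alveoli and is passed between mice through the air. A mouse with an intact immune system clears it with helper T cells, macrophages and antibody. On mucosal surfaces, plasma cells release IgA and IgM as units joined by the J chain, and the polymeric immunoglobulin receptor of epithelial cells carries them into the lumen. In a homogenate of whole lung, more cells of a type and more RNA per cell cannot be told apart.

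All levels below are log2(intensity + 8), so a difference of 1 is a doubling of intensity plus offset. Differences are exposed minus unexposed, with the standard error (SE) of limma's linear model. The model was fitted on the 30 arrays of days 34 and 41, p-values were adjusted by Benjamini-Hochberg over 8647 features, and a feature passed at an adjusted p under 0.05. A feature is 1 gene by its brightest probe set, or 1 probe set that the annotation pairs with several genes. The latter keep their probe set ID, because many immunoglobulin sequences are too alike to be told apart.

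The day 41 arrays were alike in quality. Array medians lay between 40.8 and 46.3 intensity units, and the correlation between any 2 of the 15 arrays lay between 0.962 and 0.982. Mean log2 levels of squamous epithelium markers lay between 4.82 and 5.37, and none of the 15 exceeded 7. Lung epithelial markers were high in all 15, with mean levels between 10.47 and 10.93. Exposed replicate 3 stood apart by skeletal muscle markers, with a mean of 7.44 against at most 4.88 in the other 14 mice. Heart muscle markers had mean levels from 6.54 to 9.35 in exposed and from 7.54 to 9.7 in unexposed mice, and all 7 were lower on average in exposed mice, with a median difference of -0.8, though 0 passed. Their part in the results was not tested.

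Among the features that passed, 1 control mouse also stood apart. Unexposed replicate 1 had the highest level of the 5 unexposed mice in 18 of the 39 features that passed, and in 22.2% of all features. Over all features unexposed replicate 2 was the highest control most often (27.3%), but in only 1 of the 39. All 18 were among the 27 features that are not antibody features. Unexposed replicate 3 was the highest control in 10 of 12 antibody features that passed, and in 17.1% of all features. This was seen after the values were known, and calls of named features that changed without unexposed replicate 1 are given below with their value without it. Where that mouse was the highest control, leaving it out raises the difference by construction. Such values are descriptions.

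At day 41, 39 of 8647 features were higher in exposed lung (0.451%) and 0 were lower (0.0%). Limma gave 649 features an unadjusted p under 0.05, of which 277 were lower. The median difference over all features was -0.02, and 44.8% of features had a positive difference. The 39 features fell into recognisable groups: 12 were antibody features (immunoglobulin probe sets and Jchain), and most others were chemokines, antigen presentation genes, complement and macrophage genes, T cell genes and products of airway epithelium. In 25 of the 39, every exposed mouse was above every unexposed mouse. Over all 12421 probe sets taken singly, this held for 98 (0.789%). The 39 were selected for a difference between the same mice, so the count of 25 is a description. When the 15 day 41 arrays were fitted alone, 108 features were higher (1.25%) and 14 lower (0.162%), and all 39 were among the 108. Of the day 34 arrays in the joint fit, 4 of 5 unexposed and 3 of 10 exposed had squamous epithelium markers above 7, and 51 features were higher when these were left out. The count of higher features was 22 without unexposed replicate 2, 24 without unexposed replicate 5 and 35 without unexposed replicate 1, of which 33 were among the 39.

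With each of the 30 mice of the fit left out in turn, 18 of the 39 features passed every time. They were Igha, Jchain, Ighv1-54, Igkv9-120, Igkv14-111, Igkv4-59, 92470_f_at, 97575_f_at and 101633_at among antibody features, and Ccl8, Ccl17, Cxcl9, Cxcr3, Ctss, Chil3, Clca1, Itih4 and Nek6 among the others. The other 21 did not pass without at least 1 mouse. Those that failed most often were C1qb, in 20 of the 30 fits, H2-Ab1 in 16, Ccl2 in 14, and Saa3, Lcp2 and H2-Eb1 in 12 each. Of the 39, 20 did not pass without unexposed replicate 2 of day 41, 17 without replicate 5, 13 without replicate 3, 13 without replicate 4 and 6 without replicate 1.

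Antibody transcripts were the largest group. Igha, the constant region of the IgA heavy chain, lay between 9.87 and 11.65 in the 10 exposed mice with a median of 10.77. The 5 unexposed mice had 8.38, 7.53, 8.93, 8.42 and 9.0. The groups did not overlap, and Igha rose by 2.46 (SE 0.33, limma adjusted p = 4.6e-05). Its other probe sets gave 0.97 and 1.5, so all of them were higher, by different amounts. The names of both others end in _f_at, the mark of probes shared across a gene family. Their rise can therefore not be assigned to Igha alone. Jchain, which joins the units of IgA and IgM, ranged from 8.57 to 9.53 (median 8.87) in exposed mice, against 7.02, 6.25, 7.95, 6.25 and 7.08 in unexposed mice. It rose by 2.0 (SE 0.38, limma adjusted p = 0.00628), again with no overlap.

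Pigr, the epithelial receptor that transports both, rose by less, 0.9 (SE 0.19, limma adjusted p = 0.0124). Its levels ran from 9.15 to 10.27 (median 9.78) in exposed mice, and the 5 unexposed mice lay close together at 8.92, 8.83, 8.66, 8.94 and 9.05. The 250 bases before the start of Pigr are shown because it is the antibody transport gene among those that passed, and they hold an E box, the palindrome CACGTG, written in capitals. The sequence is RefSeq's at chr1:130826434-130826683, plus strand, build GRCm38.p6.
Pigr: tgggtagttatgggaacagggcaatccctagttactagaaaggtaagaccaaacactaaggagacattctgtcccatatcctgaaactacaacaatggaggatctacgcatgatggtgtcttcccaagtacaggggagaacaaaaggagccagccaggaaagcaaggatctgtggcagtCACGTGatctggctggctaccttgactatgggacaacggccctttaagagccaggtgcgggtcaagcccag
The match begins 71 bases before the start. On either strand, CACGTG was found in 6.02% of the 32851 windows of this length in the table, and in 3 of the 21 genes among those that passed that have a window there. The octamer ATTTGCAT, known from immunoglobulin promoters, was in 1.6% of all windows and in 0 of these 21 genes, and the table gave no window for the immunoglobulin genes named here.

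Variable segments made up most of the other antibody features. Each one named in this paragraph was read by a probe set whose name ends in _f_at, which shares probes across a gene family. Its rise can therefore not be assigned to that segment alone. Ighv1-54, a heavy chain variable segment, had the second largest difference of all 39. It lay between 8.85 and 10.14 (median 9.35) in exposed mice and at 5.99, 5.09, 7.25, 5.69 and 6.46 in unexposed mice, and rose by 3.36 (SE 0.41, limma adjusted p = 1.04e-05). Among kappa light chain segments, Igkv9-120 rose by 2.5 (SE 0.43, limma adjusted p = 0.0019), from 6.43, 6.44, 7.21, 6.45 and 6.32 in unexposed mice to between 7.84 and 10.31 (median 9.19). Igkv14-111 rose by 2.44 (SE 0.33, limma adjusted p = 6.84e-05), from 6.65, 6.66, 7.72, 6.52 and 6.78 to between 8.07 and 10.07 (median 9.3). For neither segment did the groups overlap. The dimmer probe sets, whose names do not end in _f_at, gave 0.16 and 0.19 for Igkv9-120 and 0.68 and 1.36 for Igkv14-111, and did not pass. Igkv6-14 lay between 8.18 and 9.77 (median 9.36) in exposed mice and at 6.51, 6.69, 7.87, 6.75 and 6.82 in unexposed mice. These groups did not overlap either, and it rose by 2.25 (SE 0.47, limma adjusted p = 0.0142), with its dimmer probe set at 0.01. Igkv4-59 rose by 1.92 and Ighv5-12 by 1.4 (SE 0.31). Without unexposed replicate 1, Igkv6-14 and Ighv5-12 had adjusted p-values of 0.0531 and 0.056.

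Among the features that passed, 4 were probe sets that name several genes, immunoglobulin genes among them. Probe set 92470_f_at, paired with 3 heavy chain genes, lay between 7.44 and 9.32 (median 8.54) in exposed mice and at 5.9, 5.83, 6.27, 6.35 and 5.73 in unexposed mice. It rose by 2.48 (SE 0.37, limma adjusted p = 0.000326). Probe set 97575_f_at, also of 3 heavy chain genes, rose by 1.59 (SE 0.26), and 96964_at, of 2 kappa chain genes, by 1.12 (SE 0.24). The remaining one, 101633_at, is paired with the kappa locus and with 1 gene of another family. It rose by 2.28 (SE 0.39, limma adjusted p = 0.00161), from 6.97, 6.72, 7.12, 6.55 and 7.04 in unexposed mice to between 8.49 and 9.91 (median 9.11). The groups did not overlap in any of these 4 probe sets.

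**Figure D1:**
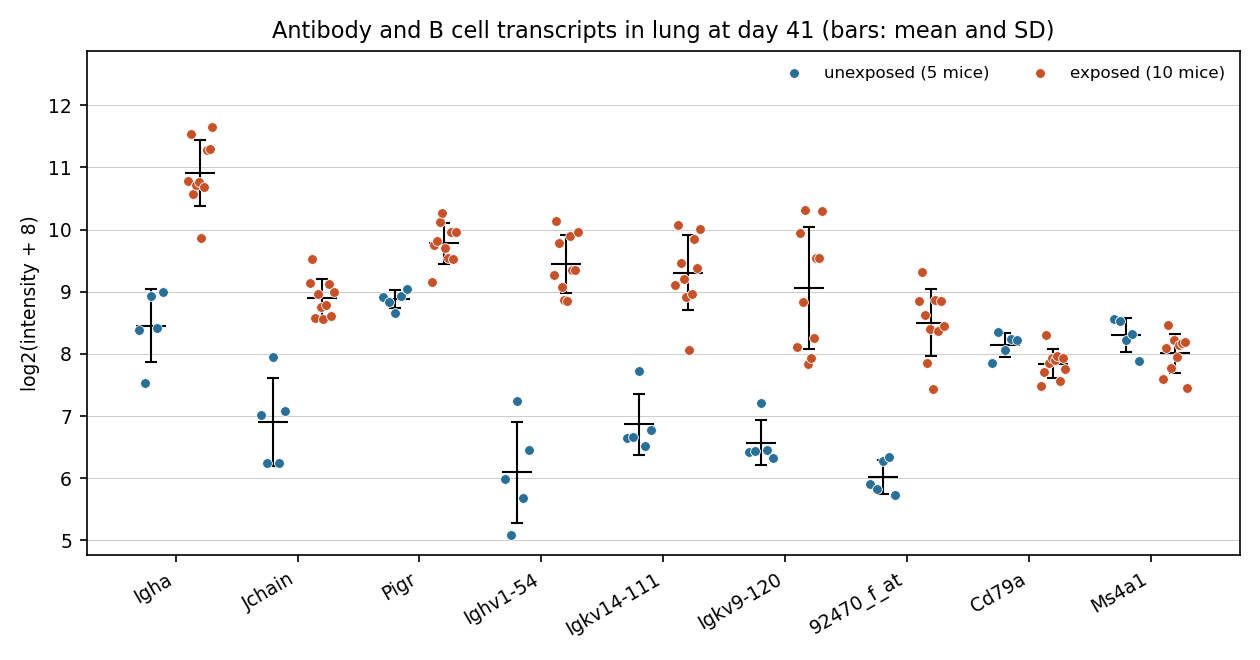
Levels of antibody and B cell transcripts in single mice at day 41, as log2(intensity + 8); blue points are the 5 unexposed and orange points the 10 exposed mice, and black bars give the mean and SD. For Igha, Jchain, Pigr, the 3 variable segments and 92470_f_at every exposed mouse lies above every unexposed mouse, whereas for the B cell genes Cd79a and Ms4a1 the groups overlap.

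To see every immunoglobulin measurement, and not only the brightest per gene, each probe set was then tested as its own feature. In that fit of 12421 probe sets, 79 were higher (0.636%) and 3 lower (0.0242%). Of the 76 probe sets annotated only with immunoglobulin genes, 25 were higher, 1 was lower and 50 did not pass. Their median difference was 1.05, with 68 of 76 above 0, beside a median of -0.01 over all probe sets. All exposed mice were above all unexposed mice in 22 of the 76, against 98 of all 12421 (0.789%). Fitted on day 41 alone, 29 of the 76 were higher and 0 lower, against 151 of all probe sets higher (1.22%). Without unexposed replicate 1, 21 of the 76 were higher and 0 lower, among them 2 of 3 probe sets of Igha and 6 of 16 of Ighm. The 76 are not independent, since the same antibody transcript can bind several of them.

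Both heavy and kappa chains were among them. Of 39 heavy chain probe sets 18 were higher, with a median of 0.98, and of 35 kappa chain probe sets 7 were higher, with a median of 1.11. All 35 kappa probe sets had a positive difference. The 2 lambda chain probe sets differed by 0.55 and 0.06 and did not pass. Of the 12 probe sets of several genes, all were above 0 and 3 were higher.

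Probe sets that carry one gene's name did not move as one. Of 16 annotated as Ighm, the IgM heavy chain, 7 were higher, and their differences ran from -0.51 to 3.13. All that passed except 99420_at and 101870_at have names ending in _f_at. The highest of the 16 was 99420_at, at 10.7 on average in exposed and 7.57 in unexposed mice. Their brightest, 93583_s_at, lay between 9.72 and 11.72 (median 10.71) in exposed mice and at 9.67, 9.84, 10.45, 9.39 and 9.55 in unexposed mice. The groups overlapped there, and its difference of 0.98 (SE 0.33, limma adjusted p = 0.305) did not pass. Of 7 probe sets annotated as Ighg3, an IgG heavy chain, 4 were higher, by 1.87 to 2.67, while the brightest gave 0.92 (SE 0.53). The names of these 4 end in _f_at, so their rise cannot be assigned to Ighg3 alone. The names of the other 3 do not, and these probe sets did not pass. Ighd, the IgD heavy chain of naive B cells, gave -0.23 (SE 0.17). The 1 probe set that fell was 98974_at, annotated as the variable segment Ighv14-2, by 0.66 (limma adjusted p = 0.0478), with the groups overlapping, and its other probe sets gave -0.6 and -0.35. It did not pass on day 41 alone (limma adjusted p = 0.0542) or without unexposed replicate 1 (limma adjusted p = 0.0704).

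**Figure D2:**
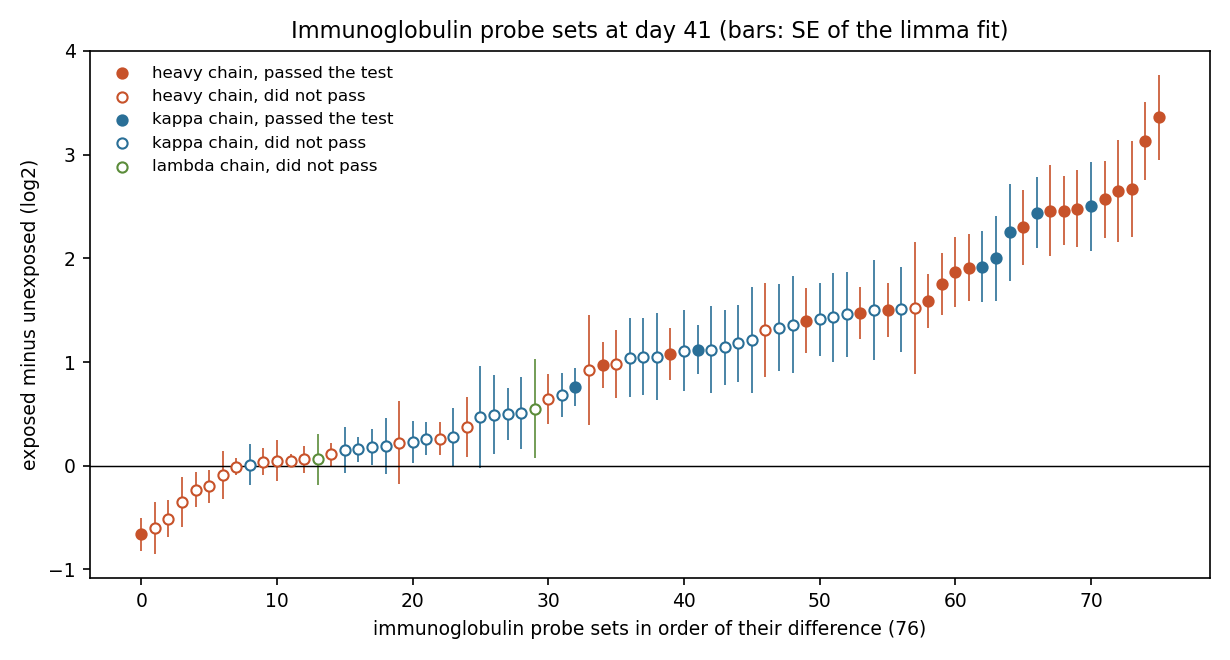
Difference between exposed and unexposed mice at day 41 for each of 76 immunoglobulin probe sets, in rising order; orange is heavy, blue kappa and green lambda chain, filled points passed the test at an adjusted p under 0.05, and bars are the SE of the fit. Differences run from -0.66 to 3.36, 68 of the 76 points lie above 0, and 25 of them are filled.

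B cell genes did not follow the antibody transcripts. Of 15 measured B cell identity genes 0 passed, their median difference was -0.06 and 5 were above 0. Cd79a, a signalling chain of the B cell receptor, lay between 7.48 and 8.31 (median 7.88) in exposed mice and at 7.86, 8.36, 8.06, 8.24 and 8.22 in unexposed mice, a difference of -0.31 (SE 0.16). Ms4a1, which encodes CD20, gave -0.29 (SE 0.18). The smallest p-values of the list belonged to the B lineage factor Ebf1, at -0.41, and the B cell surface protein Cd72, at 0.37. Of 10 plasma cell genes 0 passed (median 0.12), among them Edem1, of the disposal of misfolded glycoproteins, at 0.38 and Tnfrsf17, the plasma cell survival receptor BCMA, at 0.16. Lymphoid chemokine and germinal centre genes passed in 0 of 9 cases (median 0.05), with the homing receptor Ccr7 at 0.26 and the B cell chemokine Cxcl13 at 0.18. CD40 ligand was near the bottom of the scale in both groups: Cd40lg lay between 3.08 and 3.4 in exposed and between 3.14 and 3.75 in unexposed mice. Its receptor Cd40 gave 0.12 (SE 0.12).

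Adck1, a kinase-like gene of mitochondria, was the 11th in size among the 39. It lay between 7.09 and 8.78 (median 7.48) in exposed mice and at 6.12, 5.15, 6.0, 5.7 and 5.45 in unexposed mice, and rose by 2.01 (SE 0.41, limma adjusted p = 0.0124). Its other probe sets gave 0.49 and 1.2.

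Chemokines of monocytes and of T cells formed the next group. Ccl8, a chemokine for monocytes and other leukocytes, lay between 6.62 and 8.28 (median 7.62) in exposed mice and at 5.91, 5.34, 4.73, 5.64 and 5.73 in unexposed mice. The groups did not overlap, and it rose by 2.1 (SE 0.25, limma adjusted p = 1.04e-05). Ccl17, a ligand of the receptor CCR4, rose by 1.47 (SE 0.29) without overlap, from a narrow unexposed range of 5.29 to 5.58. Ccl2, the main chemokine of inflammatory monocytes, rose by 0.94 (SE 0.22), with 8 of 10 exposed mice above all controls. In all, 3 of 13 genes of the list of CC chemokines, which also holds the receptors Ccr1 and Ccr3, were higher, their median was 0.46 and 11 were above 0. Ccl9 gave 1.41 (SE 0.35, limma adjusted p = 0.0637) with no overlap between groups and did not pass.

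Cxcl9, a chemokine induced by interferon-gamma that draws T cells through the receptor CXCR3, rose by 2.11 (SE 0.38, limma adjusted p = 0.00253). Exposed mice lay between 5.22 and 6.84 (median 6.27). The unexposed mice had 6.67, 3.35, 3.62, 3.25 and 3.66, so the first was within the exposed range and the other 4 were far below it. Without unexposed replicate 1 the difference was 2.75 (limma adjusted p = 3.33e-07), and all 10 exposed mice lay above the remaining 4. That mouse was left out because of its high level, so these values describe the other mice and are no further test. Cxcr3 itself rose by 0.85 (SE 0.15), with unexposed mice at 6.21, 5.54, 5.59, 5.66 and 5.41 and exposed mice between 6.0 and 7.02 (median 6.6). Here too unexposed replicate 1 was the highest control, and without it the difference was 0.98. Cxcl10, a second CXCR3 ligand, gave 0.68 (SE 0.22, limma adjusted p = 0.249), and Ifng, the cytokine itself, lay near the bottom of the scale, between 3.06 and 3.91 over all 15 mice.

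Genes of the interferon-gamma response as a list gave 2 of 25 higher, both described above. Their median was 0.36 and 22 were above 0. The type I interferon list gave 0 of 10 (median 0.03), with the viral RNA sensor Ifih1 at 0.21 and the transcription factor Irf7 at 0.26.

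Antigen presentation genes were higher in part. H2-Ab1 and H2-Eb1, the beta chains of the class II molecules that present peptides to helper T cells, rose by 0.75 (SE 0.18, limma adjusted p = 0.0467) and 0.67 (SE 0.16, limma adjusted p = 0.0412). H2-Ab1 lay between 10.15 and 10.92 (median 10.46) in exposed mice and at 9.95, 9.73, 9.38, 9.69 and 9.81 in unexposed mice. H2-Eb1 lay between 10.38 and 11.23 (median 10.81) and at 10.37, 10.09, 9.86, 10.17 and 10.22. Neither gene's groups overlapped, though for H2-Eb1 only a narrow gap parted the lowest exposed mouse from unexposed replicate 1. Ctss, the protease that trims the invariant chain of class II molecules, rose by 0.81 (SE 0.15, limma adjusted p = 0.003), with exposed mice between 10.61 and 11.49 above unexposed mice between 9.92 and 10.43. In all, 3 of 13 genes of the class II list were higher, with a median of 0.26 and 10 above 0. H2-Aa, the alpha chain, gave 0.57 (SE 0.15, limma adjusted p = 0.0941) and did not pass. Without unexposed replicate 1, H2-Ab1 had an adjusted p of 0.0529. The class I list gave 0 of 9 (median 0.28), with the heavy chains H2-D1 at 0.33 and H2-K1 at 0.34.

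The upstream windows of H2-Eb1 and Cxcl9 are shown because both genes passed and both windows hold the core of the X box, TAGCAAC, and a Y box, CTGATTGG or its reverse complement, the paired elements known from class II promoters. Capitals mark these matches. H2-Eb1 is at chr17:34305617-34305866, plus strand, and Cxcl9 at chr5:92328080-92328329, minus strand, both from RefSeq, build GRCm38.p6.
H2-Eb1: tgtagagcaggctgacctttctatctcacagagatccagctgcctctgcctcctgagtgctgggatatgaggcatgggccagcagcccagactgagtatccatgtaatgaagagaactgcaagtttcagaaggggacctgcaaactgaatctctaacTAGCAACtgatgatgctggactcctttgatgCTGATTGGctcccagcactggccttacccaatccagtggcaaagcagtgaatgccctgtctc
Cxcl9: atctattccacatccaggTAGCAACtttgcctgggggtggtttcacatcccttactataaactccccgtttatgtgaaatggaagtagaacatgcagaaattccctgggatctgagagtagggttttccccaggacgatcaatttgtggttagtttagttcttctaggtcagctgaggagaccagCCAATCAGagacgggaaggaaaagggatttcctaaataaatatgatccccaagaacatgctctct
In H2-Eb1 the matches begin 93 and 62 bases before the start, and in Cxcl9 they begin at 232 and 65, with the Y box on the other strand. TAGCAAC on either strand was in 3.16% of all windows, CTGATTGG in 3.83% and both in 0.116%. These are matches of letters only, and whether those in Cxcl9, on opposite strands, form the pair known from class II promoters was not tested.

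Macrophage and complement genes passed in smaller numbers. C1qc and C1qb, chains of complement C1q that macrophages make, rose by 0.94 (SE 0.21, limma adjusted p = 0.0315) and 0.85 (SE 0.2, limma adjusted p = 0.0491). C1qc lay between 8.66 and 9.58 (median 9.16) in exposed mice and at 8.55, 8.01, 7.9, 8.2 and 8.17 in unexposed mice. The dimmer probe set of C1qb gave 0.02. The groups did not overlap for either chain, nor for C1qa, the third chain, at 0.83 (SE 0.22, limma adjusted p = 0.0886), which did not pass. Aif1, a calcium-binding protein of macrophages, rose by 1.17 (SE 0.23). Exposed mice lay between 5.1 and 6.31 (median 5.97) and unexposed mice at 5.5, 3.86, 4.5, 4.78 and 4.59, so only unexposed replicate 1 reached the exposed range. Without it the difference was 1.38. Mmp12, the macrophage elastase, gave 2.1 (SE 0.58, limma adjusted p = 0.115) and did not pass, although its exposed mice, from 7.67 to 10.97, were all above the unexposed mice, from 6.4 to 7.37.

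The macrophage list gave 2 of 29 higher (median 0.4, 25 above 0), and the complement list 2 of 11 (median 0.21), with the same C1q chains. In the fit on day 41 alone 10 of 29 macrophage genes, 5 of 13 class II genes and 3 of 11 complement genes were higher. Ccl9, Lcn2, Mmp12, C1qa, H2-Aa and H2-D1 also passed there. Without exposed replicate 3, the mouse with skeletal muscle markers, 33 of all 8647 features were higher (0.382%), 32 of them among the 39. The 7 that did not pass were Ccl2, Saa3, C1qb, C1qc, H2-Ab1, H2-Eb1 and Lcp2. In that fit 0 of 29 macrophage genes, 0 of 11 complement genes and 1 of 13 class II genes passed. So did 2 of 13 genes of the CC chemokine list and 1 of 15 acute phase genes. Leaving out exposed replicate 2, 4, 5 or 10 cost more of the 39, with 8, 9, 8 and 8 not passing. C1qb and C1qc did not pass in any of those fits either.

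**Figure D3:**
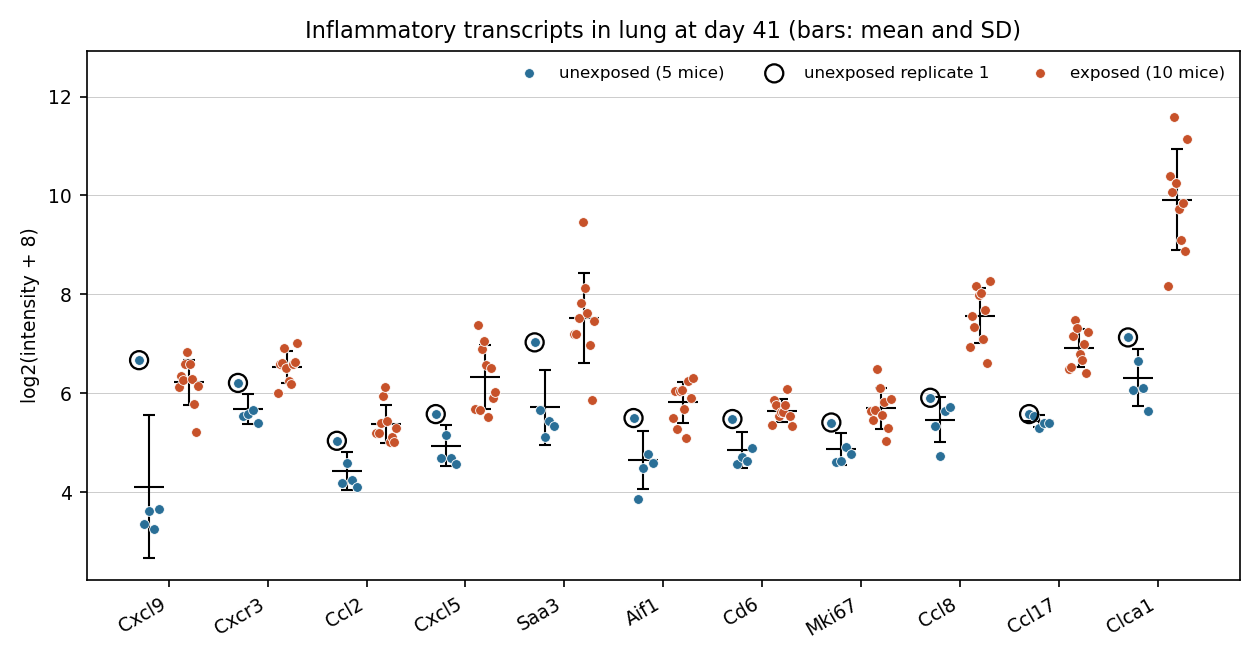
Levels of inflammatory transcripts in single mice at day 41, as log2(intensity + 8); blue points are the 5 unexposed and orange points the 10 exposed mice, black bars give the mean and SD, and rings mark unexposed replicate 1. For Cxcl9 the ringed mouse is at 6.67 and the other 4 unexposed mice between 3.25 and 3.66; for Ccl8, Ccl17 and Clca1 every exposed mouse lies above all unexposed mice.

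T cell genes rose in 2 of 20 cases, with a median of 0.3 and 16 above 0. Cd6, a co-receptor of T cells, rose by 0.79 (SE 0.15), with exposed mice between 5.34 and 6.09 (median 5.62), unexposed mice at 5.48, 4.58, 4.71, 4.63 and 4.9, and its other probe set at 0.2. Ctla4, an inhibitory receptor of activated and regulatory T cells, rose by 0.85 (SE 0.18) from levels near the bottom of the scale, 3.14 to 3.75. Cd5 gave 0.79 (SE 0.19, limma adjusted p = 0.0563), Cd3e, a chain of the T cell receptor complex, 0.56 (SE 0.2) with no overlap, Cd4 0.61 (SE 0.23) and Cd8a 0.3 (SE 0.18), and none of these passed. On day 41 alone 5 of 20 passed, Cd3e and Cd5 among them. Cd5 passed at 0.93 (limma adjusted p = 0.0244) without unexposed replicate 1, its highest control. Lcp2, an adaptor of T cell receptor signalling, rose by 0.83 (SE 0.19). Ctla4 had an adjusted p of 0.056 without unexposed replicate 1. The cytotoxic and natural killer list gave 0 of 14 (median -0.04), with perforin (Prf1) at -0.53, the protease Ctsw at 0.46 and Gzmb, granzyme B, at -0.34. The IL-17 list gave 0 of 6 (median 0.09), with Il17a at 0.16 and Il12b at 0.29.

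Mki67, a marker of dividing cells, rose by 0.83 (SE 0.17). Exposed mice lay between 5.04 and 6.5 (median 5.65), and unexposed mice at 5.41, 4.62, 4.64, 4.92 and 4.77. It was 1 of 31 cell cycle genes to pass, and 28 of the 31 were above 0, with a median of 0.23. Its other probe set gave -0.18. The mitotic kinase Nek6 rose by 0.51 (SE 0.09, limma adjusted p = 0.003), the smallest difference of the 39, with exposed mice between 6.15 and 6.62 and unexposed mice between 5.85 and 6.01.

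Clca1, a protein secreted by goblet cells, had the largest difference of all features. It lay between 8.16 and 11.58 (median 9.95) in exposed mice and at 7.13, 6.06, 6.65, 6.1 and 5.64 in unexposed mice. The groups did not overlap, and it rose by 3.6 (SE 0.39, limma adjusted p = 2.79e-06). Its dimmer probe set gave -0.11. No other gene of the goblet cell and mucus list passed, so 1 of 11 did, with a median of 0.09. The mucin Muc5ac lay near the bottom of the scale, between 3.14 and 3.72 over all 15 mice, and Agr2, which folds mucins, gave 0.05 (SE 0.37). Chil3, a chitinase-like protein of alternatively activated macrophages, rose by 1.11 (SE 0.17, limma adjusted p = 0.000497). Its exposed mice lay between 11.08 and 11.9 (median 11.39), above the unexposed mice at 10.1, 9.75, 10.34, 10.48 and 10.9. The type 2 list gave 2 of 14 (Chil3 and Ccl17, median 0.09), while Arg1 gave 0.32 (SE 0.47) and the cytokine Il13 0.09 (SE 0.11).

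Acute phase genes rose in 2 of 15 cases (median 0.2). Itih4, an inhibitor chain of the acute phase, rose by 0.99 (SE 0.17, limma adjusted p = 0.0019), with exposed mice between 7.29 and 8.14 and unexposed mice between 6.55 and 6.89. Saa3, a serum amyloid A made in inflamed tissue, rose by 1.81 (SE 0.42) with a wide spread. Exposed mice lay between 5.87 and 9.46 (median 7.5), and unexposed mice at 7.03, 5.67, 5.11, 5.44 and 5.33. The first of these was above the lowest exposed mice, and without it the difference was 2.14. Lcn2, which binds bacterial siderophores, gave 1.05 (SE 0.27, limma adjusted p = 0.0726) without overlap and did not pass, and its dimmer probe set gave 0.02. Among neutrophil genes 1 of 17 was higher (median 0.02), the neutrophil chemokine Cxcl5, by 1.38 (SE 0.31). S100a8, an abundant neutrophil protein, gave -0.3 (SE 0.28), with unexposed replicate 1 at 10.09 and the other 4 unexposed mice at 8.2 to 9.02, and without that mouse its difference rounded to zero.

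The remaining features that passed were Dnmt3a, a DNA methyltransferase, by 0.68 (SE 0.15) with its other probe set at -0.04, Kng1, the kininogen precursor of bradykinin, by 0.99 (SE 0.21), the secreted protein C1qtnf3 by 0.83 (SE 0.18) and probe set 96515_at, paired with 2 genes, by 1.1 (SE 0.22). Kng1 and C1qtnf3 had an adjusted p of 0.0638 without unexposed replicate 1. Groups overlapped for Dnmt3a, Kng1 and C1qtnf3, and did not for 96515_at.

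**Figure D4:**
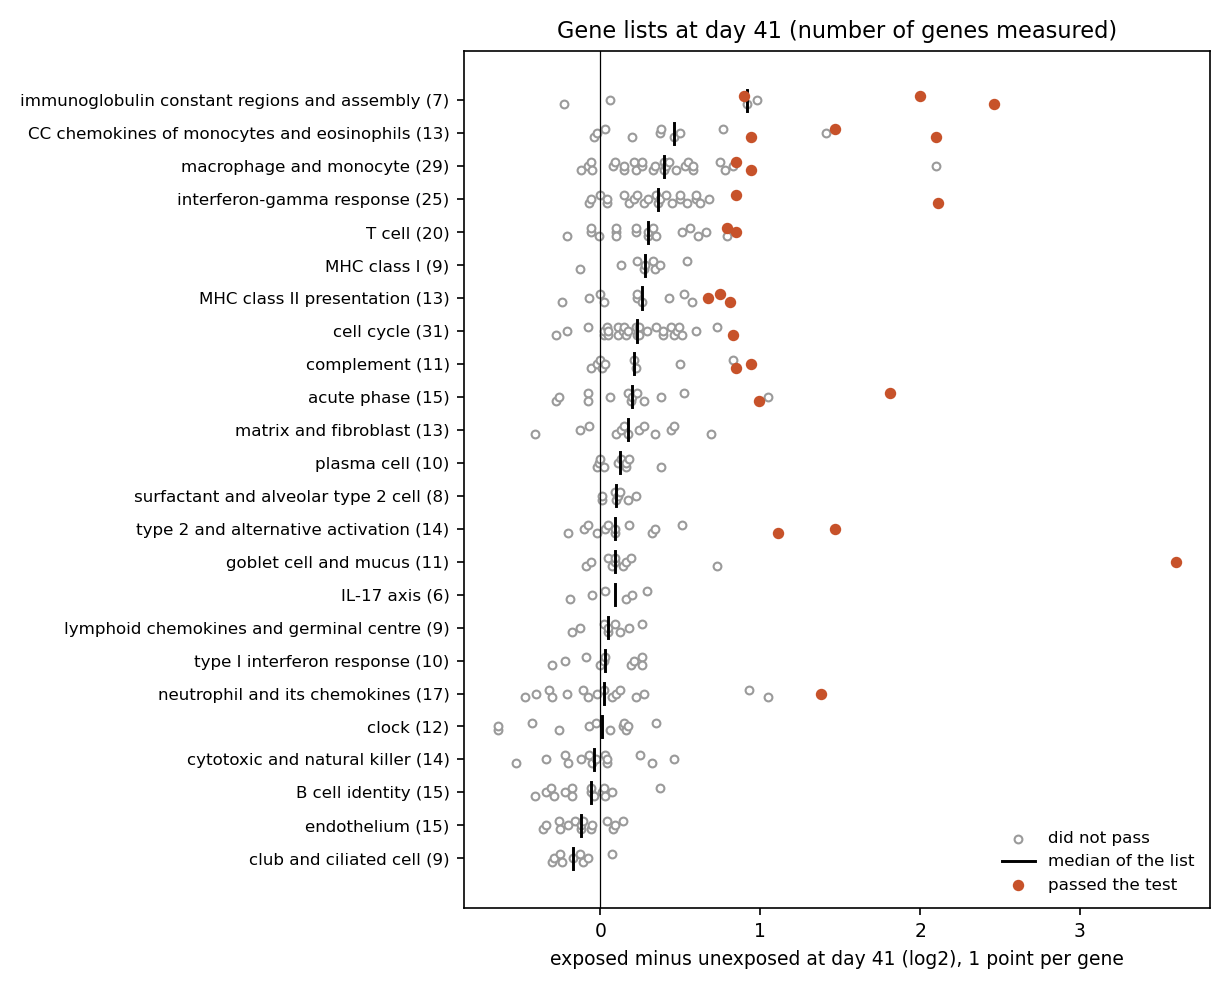
Differences between exposed and unexposed mice at day 41 for the measured genes of 24 lists, 1 point per gene; orange points passed at an adjusted p under 0.05, grey points did not, and black ticks are list medians. The highest median is that of immunoglobulin constant regions and assembly, 0.92 over 7 genes, and all points that passed lie above 0.

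No feature passed as lower. The 6 with the smallest unadjusted p among negative differences were Nxph1, a neurexophilin, at -0.38 (limma adjusted p = 0.0538), Pon1, an esterase of lipoproteins, at -1.26 (0.0726), the transcription factor Atf5 at -0.41 (0.0896), the amine oxidase Aoc1 at -0.47 (0.0941), T-cadherin (Cdh13) at -0.7 (0.122) and Rsu1, an adhesion protein, at -0.43 (0.125). All 10 exposed mice were below the unexposed mean for each of the 6. The 6 were picked by their p-values in the same mice, so this is a description. Pon1 lay between 5.29 and 7.89 (median 6.6) in exposed mice and at 7.76, 7.6, 7.98, 8.45 and 8.17 in unexposed mice. Without unexposed replicate 1, Aoc1 and Cdh13 passed, both at an adjusted p of 0.0261. Atf5 and Rsu1 passed in the fit on day 41 alone.

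No gene passed in the lists of alveolar type 2, club and ciliated, endothelial, matrix and clock genes. Pigr and Clca1, described above as epithelial and goblet cell genes, passed but are not in these lists. The surfactant and alveolar type 2 list gave 0 of 8 (median 0.1), with the phosphate transporter Slc34a2 at 0.12, the protease Napsa at 0.17 and surfactant protein C (Sftpc) at 0.11. The club and ciliated cell list gave 0 of 9 (median -0.17), with the reductase Cbr2 at -0.24, the cytochrome Cyp2f2 at -0.29 and Scgb1a1, the club cell secretory protein, at 0.07. The endothelial list gave 0 of 15 (median -0.12), with the angiopoietin receptor Tek at -0.36 and Ramp2 at -0.34. The matrix list gave 0 of 13 (median 0.17), with elastin (Eln) at 0.69 and Col3a1 at 0.44, and the clock list 0 of 12 (median 0.01), with Nr1d1 at -0.64 and Cry1 at 0.35. On day 41 alone, Eln (limma adjusted p = 0.0443) and Cry1 (limma adjusted p = 0.0415) passed as higher and Nr1d1 (limma adjusted p = 0.0202) as lower, and Cry1 also passed without exposed replicate 3. In the joint fit 0 genes passed in the 10 marker lists, of which 1 is of lung epithelium and 9 are of other tissues and blood cells, among them thymus, adipocyte, platelet, mast cell and red cell genes.

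The same experiment sampled day 34, with its own control mice, so the exposure effect of the 2 days could be compared. The 12 antibody features that passed at day 41 had a median difference of 2.26 at day 41 and 0.35 at day 34, and 0 of 12 passed at day 34. All 12 had the larger effect at day 41. The other 27 had a median of 0.94 at day 41 and 1.33 at day 34, where 22 passed, and 20 of the 27 had the smaller effect at day 41. All 39 were selected by passing at day 41, so these medians and counts are a description. The share of all features that passed at day 34 is not given here.

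The difference between the days was tested for every feature in the same limma fit. Effects were compared with their signs, so larger means more positive at day 41 and smaller means more negative. The effect was larger at day 41 for 4 features (0.0463%) and smaller for 6 (0.0694%), and 950 features had an unadjusted p under 0.05. Ighv1-54 was the only one of the 39 to pass, with an effect larger by 3.01 at day 41 (limma adjusted p = 0.0224). It averaged 9.45 ± 0.47 (SD, n = 10) in exposed mice of day 41. Igha gave 1.8 (adjusted p = 0.122), Jchain 1.81 (adjusted p = 0.198) and 101633_at 2.36 (adjusted p = 0.0905), none of which passed. Among all immunoglobulin probe sets taken singly, 69 of 76 had a larger effect at day 41, and 1 passed that test. Effects were also larger at day 41 for the clock gene Cry1 (0.92), the xenobiotic cytochrome Cyp1a1 (1.74) and the defensin Defa35 (1.6). They were smaller for the interferon-inducible GTPases Igtp (-1.38) and Ifi47 (-1.11), for Lcn2 (-1.81) and for the protease inhibitor Serpina3n (-1.07). So were those of the cyclophilin Ppie (-1.14) and of probe set 93236_s_at, paired with 2 genes (-1.05). These values are differences between the days and not the effect at either day. Cry1 gave 0.35 at day 41, so its day 34 effect was negative. Serpina3n gave -0.26 at day 41, so its day 34 effect was positive.

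Array quality moved with the day. Of the 5 unexposed arrays of day 34, 4 had squamous epithelium markers above 7, and the signal of their Gapdh control probes at the 3' end exceeded that at the 5' end by up to 2.14 (log2), against 0 of 5 arrays and at most 0.13 at day 41. With the Gapdh ratio as a covariate the counts were 2 larger and 0 smaller, and without day 34 unexposed replicate 5 they were 34 and 89. With other single mice left out they ran from 2 to 7 and from 1 to 13. Of the 10 features, Cry1, Cyp1a1 and Ppie passed with each of the 30 mice left out in turn, and the other 7 did not pass without at least 1 mouse. Ighv1-54 did not pass without day 34 unexposed replicate 4 or day 41 unexposed replicates 1, 2 and 4.

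**Figure D5:**
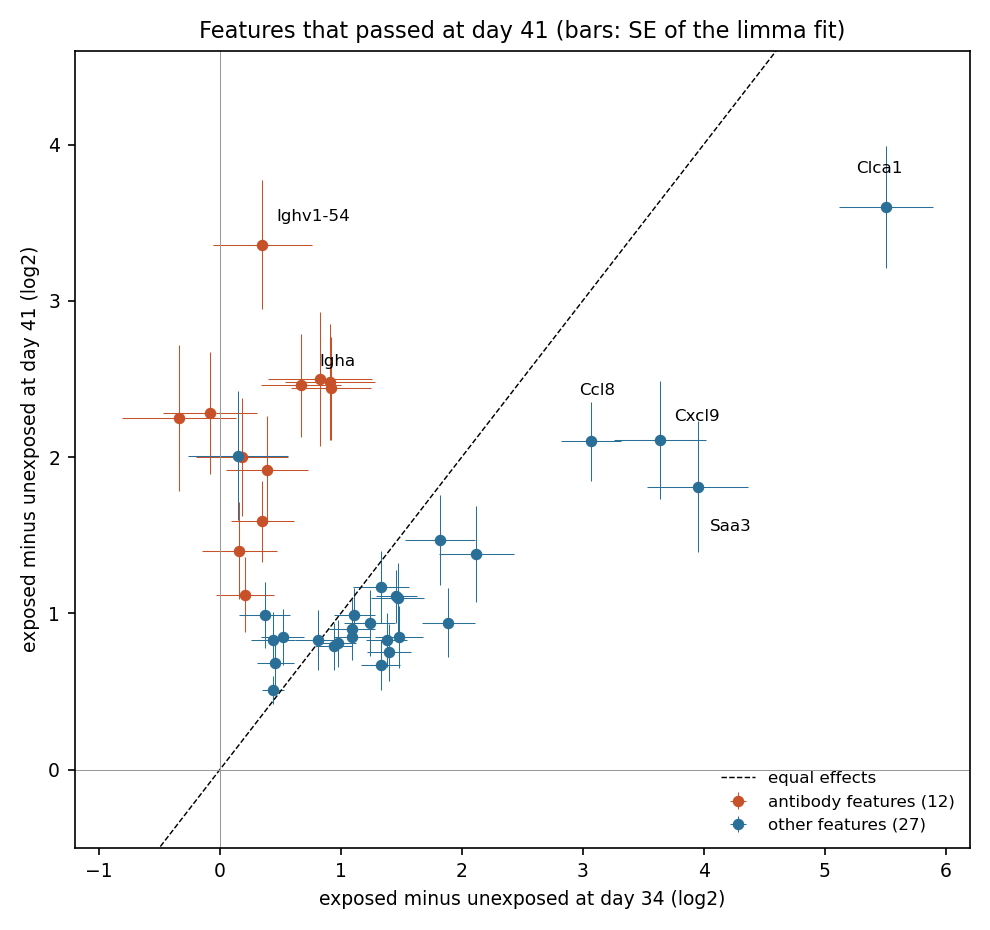
Exposure effect at day 34 (horizontal) and day 41 (vertical), both log2, for the 39 features that passed at day 41; orange marks 12 antibody features and blue the other 27, bars are the SE of the fit and the dashed line marks equal effects. The antibody features lie above the line, with Ighv1-54 at 0.35 and 3.36, and Clca1, Saa3, Cxcl9 and Ccl8 lie below it.

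Among the 10 exposed mice, 4 pairs of genes were correlated to describe how the mice varied. Igha and Jchain gave a Pearson r of 0.61 (permutation p = 0.0566, adjusted over the 4 pairs 0.113) and a Spearman rho of 0.67 (permutation p = 0.0401, adjusted 0.16), and r was 0.59 without the 2 mice farthest from the median of Igha. Cxcl9 and Ccl8 gave r = 0.66 (permutation p = 0.0433, adjusted 0.113) and rho = 0.53 (permutation p = 0.123, adjusted 0.209), and r was 0.32 without the 2 mice farthest from the median of Cxcl9 and 0.39 without exposed replicate 9 alone. Igha and Cxcl9 gave r = -0.5 (permutation p = 0.137, adjusted 0.182) and rho = -0.49 (permutation p = 0.157, adjusted 0.209), and r was -0.5 without the 2 mice. Igha and Clca1 gave r = 0.2 (permutation p = 0.586, adjusted 0.586) and rho = 0.2 (permutation p = 0.589, adjusted 0.589), and r was -0.03 without them. Tests were two-sided with 100000 resamples. None of the 4 pairs passed after adjustment, and the 2 cages of the exposed mice could not be analysed separately.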

How the data were processed

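Total RNA of mouse lung was labelled with biotin and hybridised to Affymetrix arrays, per the labels' protocols. The authors deposited linear intensities of 12487 probe sets for each of 95 arrays. Their method of probe summary is not given in the sources used. After removal of 2% of values at each end, array means were 100.05 to 100.07, so the intensities had been scaled. They were used as deposited, as log2(intensity + 8), where the offset of 8 lies near the 20th percentile of values, 6.76; an offset shrinks the differences of dim genes. The number of arrays limits precision.

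By GEO's platform annotation, 10855 probe sets have 1 symbol, 396 have several and 1236 have no symbol; of the first, 10839 had their identifier in RefSeq's gene table (GRCm38.p6). Left out were 65 control probe sets and 1 with a missing value. Features were 8251 genes by their brightest probe set (2072 genes had several) and 396 probe sets of several genes. Symbols can be old, and probe sets whose names end in _f_at share probes across a gene family.

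Groups came from sample titles. Limma 3.58.1 in R 4.3.3 fitted the 4 C57BL groups of days 34 and 41 (lmFit and eBayes, Benjamini-Hochberg over all features, threshold 0.05). Correlations used scipy 1.17.1 and figures matplotlib 3.10.9. The fit was tested on simulated data. The annotated table of promoter windows was searched on both strands. Features described in full are the 12 largest that passed. Named besides are the other features that passed, the 6 falls with the smallest p, up to 4 members of each pathway list that passed or otherwise the 2 with the smallest p, a list of genes of interest where measured, and features whose effect differed between days; a few more, such as Ccl9, Cd5, Ighd and H2-Aa, were added after their values were seen. The groups, gene lists and tests were chosen with earlier results of these data known. No 2 arrays held identical values. Alternatives were other offsets, a filter at a mean level of 5.5, quantile normalization, other sets of arrays or probe sets, covariates and left-out mice.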

Additional observations from a re-analysis of the deposited data

Results flagged for a closer look

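In single groups of mice, 9 of 206 sets of values had a highest or lowest mouse whose gap to its neighbour was a large share of the group's range by Dixon's test, and chance alone flags about 1 in 20. Cxcl9 in unexposed replicate 1 stood at 6.67, with a gap of 0.88 of the range. Unexposed replicate 3 was far above the other controls for Igkv14-111 (7.72, gap 0.779), Igkv9-120 (7.21, gap 0.858), Igkv6-14 (7.87, gap 0.77) and Ifng (3.91, gap 0.739). Cd40lg was highest in unexposed replicate 5 (3.75, gap 0.905). Among exposed mice, S100a8 was highest in replicate 5 (9.82, gap 0.61), Muc5ac highest in replicate 4 (3.72, gap 0.526) and Ctsw lowest in replicate 6 (4.13, gap 0.496).

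The exposure effect differed between days 41 and 34, by limma's test of the difference, for 10 features. Larger and smaller refer here to the effect with its sign. It was larger at day 41 for Cry1 (0.92, adjusted p = 0.000143), Cyp1a1 (1.74, adjusted p = 0.000666), Defa35 (1.60, adjusted p = 0.0224) and Ighv1-54 (3.01, adjusted p = 0.0224). It was smaller at day 41 for Ppie (-1.14, adjusted p = 0.0203), Serpina3n (-1.07, adjusted p = 0.0224), Igtp (-1.38, adjusted p = 0.0283), Lcn2 (-1.81, adjusted p = 0.0411), Ifi47 (-1.11, adjusted p = 0.0445) and 93236_s_at (-1.05, adjusted p = 0.0475).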

How the results depend on the processing

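Apart from leaving out a mouse there were 14 alternatives; 8 of the 39 features were too dim to be tested under the filter at a mean level of 5.5, and the other 13 tested all 39. All 538 values so obtained were positive and 489 still passed; 18 features passed wherever tested, and 16 of these also with each mouse left out, Igha, Ighv1-54, Ccl8, Cxcl9, Chil3 and Clca1 among them. The count of higher features was 108 on day 41 arrays alone, 103 with all 95 arrays, 170 with unexposed mice of both days pooled, 79 for every probe set and 23 with the replicate block. That of lower features was 14, 12, 31, 3 and 1 in the same fits, 1 with an offset of 2, with the filter on dim features and with the Gapdh ratio, and 2 where probe sets of a gene were averaged and where arrays with squamous transcripts were left out. With 1 mouse left out these counts ran from 22 to 56 and from 0 to 3, and immunoglobulin probe sets higher from 19 to 25. Under the other alternatives that last count was 21 to 29, with the replicate block at 21.

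Features with a larger signed effect at day 41 than at day 34 numbered 55 with all 95 arrays. They numbered 2 each with the Gapdh ratio, averaged probe sets and without squamous arrays. Those with a smaller effect numbered 139 with all arrays, 0 with the Gapdh ratio, 3 each for every probe set, averaged probe sets and both tissue scores, 1 each with the squamous score and the replicate block, and 2 without squamous arrays. With 1 mouse left out the counts ran from 2 to 34 and from 1 to 89. Deviations of same-numbered exposed and unexposed mice had correlations from -0.13 to 0.09 at day 41. At day 34 they ran from -0.07 to 0.4, the highest for replicate 5. These correlations cannot show whether the numbers pair the mice, since mice that share a cage or an order need not deviate together.

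Signs changed only among differences that did not pass. With unexposed mice of both days pooled these were Cxcl13 (-0.01), Cry1 (-0.21), Defa35 (-0.63), Ppie (0.38), Sftpc (-0.23), Scgb1a1 (-0.24) and Ifih1 (-0.0). Agr2 gave -0.01 with averaged probe sets and Ifng 0.12 with the replicate block. With 1 mouse left out, Agr2 ran from -0.08 to 0.18 (below 0 without exposed replicates 4 and 8 and unexposed replicate 4), Ifng from -0.14 to 0.06 (above 0 without unexposed replicate 3), Scgb1a1 from -0.01 to 0.12 (below 0 without the same mouse) and Cxcl13 from -0.05 to 0.38 (below 0 without unexposed replicate 2). The 4 correlations passed under no alternative, and with 1 mouse left out r ran from 0.49 to 0.75 for Igha with Jchain, -0.59 to -0.43 for Igha with Cxcl9, 0.39 to 0.77 for Cxcl9 with Ccl8 and -0.01 to 0.34 for Igha with Clca1. The causes of these changes were not tested. Values near 3, the level of an intensity of 0 with the offset, bound what dim genes such as Ifng and Cd40lg can show.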
